A study of Drosophila melanogaster with 6 samples.

Results

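Fragments of the glutamate tRNAs were selected as the listed small RNA sequences whose tRNA gene name ended in GluCTC or GluTTC. They comprised 773 of the 3100 distinct tRNA-derived sequences in the 6 deposited tables, and 36990 of the 199971 reads once each read was counted a single time. Glu-CTC held 551 of these sequences and 32832 reads, Glu-TTC held 217 sequences and 4143 reads, and 5 sequences with 15 reads matched both and entered neither count. Of the 297 tRNA genes named in the tables, 25 are glutamate genes. Of the 19 Glu-CTC genes, 10 lie on chromosome arm 3L, 4 on 2R and 5 in the unplaced part of the dm3 assembly, and the 6 Glu-TTC genes all lie on 2R. Small RNAs of 25 to 70 nt came from adult male Drosophila melanogaster in a w1118 background, from whole bodies without testes. The Dnmt2 mutants carried the mutant allele on both chromosomes, and the comparison flies were heterozygous for it, as the strain labels state, whereas the series title calls them wild type. Both genotypes were sampled untreated at 10 days (control), at 10 days after 1 h at 37 °C and 5 h at room temperature (heat shock), and at 12 days, 2 days after the heat shock (recovery). Each of the 6 groups had 1 library, and the labels name no separate cultures, so a p-value given here measures the spread among 6 libraries and nothing beyond them. At recovery the flies were also older, and an effect of age cannot be told apart from that of recovery.

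A tRNA brings an amino acid to the ribosome and reads its codon with the anticodon, bases 34 to 36 in the standard numbering. Glu-CTC and Glu-TTC are the isoacceptors for glutamate: they carry the same amino acid and differ in the first anticodon base, so that the CTC form pairs with codon GAG and the TTC form is the reader of GAA. Stressed cells cut tRNAs in the anticodon loop and release 5′ and 3′ fragments, and 5′ glutamate fragments are among the abundant ones in many animals. Dnmt2 is a methyltransferase that places a methyl group on a cytosine of the anticodon loop of a few tRNAs, of which Asp-GTC is the best known substrate. The tRNA positions used here count from the first base of the mature tRNA.

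The Glu-CTC fragments of the 3′ side that match only genes of the Glu-CTC-3 group illustrate the copies behind the counts. This group has 9 genes on 3L and 5 unplaced genes. Both fragments run to base 72, the last base of the gene as annotated, and the capital letter marks base 56, the only base at which the Glu-CTC-3 sequence differs from the single Glu-CTC-1 gene.
Glu-CTC-3, bases 40 to 72: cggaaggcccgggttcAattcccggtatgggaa
Glu-CTC-3, bases 39 to 72: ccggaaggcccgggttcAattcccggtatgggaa
The fragment of bases 40 to 72 had 35, 13 and 7 reads in mutant control, heat shock and recovery, against 6, 17 and 27 reads in the heterozygotes. The fragment that starts at base 39 had 20, 19 and 0 reads in the mutants, against 12, 24 and 24 reads in the heterozygotes. Since base 56 lies outside every read that ends in the anticodon loop, the Glu-CTC-3 and Glu-CTC-1 genes are treated as 1 family, Glu-CTC-3/1. The 3 Glu-CTC-2 genes differ from Glu-CTC-3 at bases 27 and 43, and Glu-TTC differs from Glu-CTC-3 at 6 of 72 bases, 4 of them within the first 36.

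Glu-CTC fragments outnumbered Glu-TTC fragments in every library. Glu-CTC had 4841, 5065 and 729 reads in mutant control, heat shock and recovery, against 2727, 11494 and 7976 reads in the heterozygotes. Glu-TTC had 848, 890 and 85 reads in the mutants, against 308, 1092 and 920 reads in the heterozygotes. The mutant recovery library was the smallest, with 5113 tRNA-derived reads in all, and the mutant control the largest, with 67477, so shares are compared rather than counts. Within a library the difference between the isoacceptors averaged 2.96 ± 0.37 on the log2 scale (SD, n = 6 libraries), and Glu-CTC was higher in 6 of 6. An exact 2-sided sign-flip permutation test gave p = 0.03125, the smallest that 6 pairs allow, and 0.0391 after Benjamini-Hochberg adjustment over 5 comparisons of the isoacceptors.

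As a share of all tRNA-derived reads, Glu-CTC took 7.17%, 13.5% and 14.3% in mutant control, heat shock and recovery, against 17.8%, 25.0% and 28.0% in the heterozygotes. The 95% Wilson intervals ran from 6.98 to 7.37% in the mutant control, and from 17.2 to 18.4% in the heterozygote control. Every mutant library thus lay below every heterozygote library. Glu-TTC took 1.26%, 2.38% and 1.66% in the mutants, against 2.01%, 2.37% and 3.23% in the heterozygotes, and here the genotypes overlapped. Of the 22 isoacceptors tested across the series, 27.3% differed between the genotypes in the edgeR fit described next. Reads carry no molecular identifiers, so all intervals cover counting error only.

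**Figure D1:**
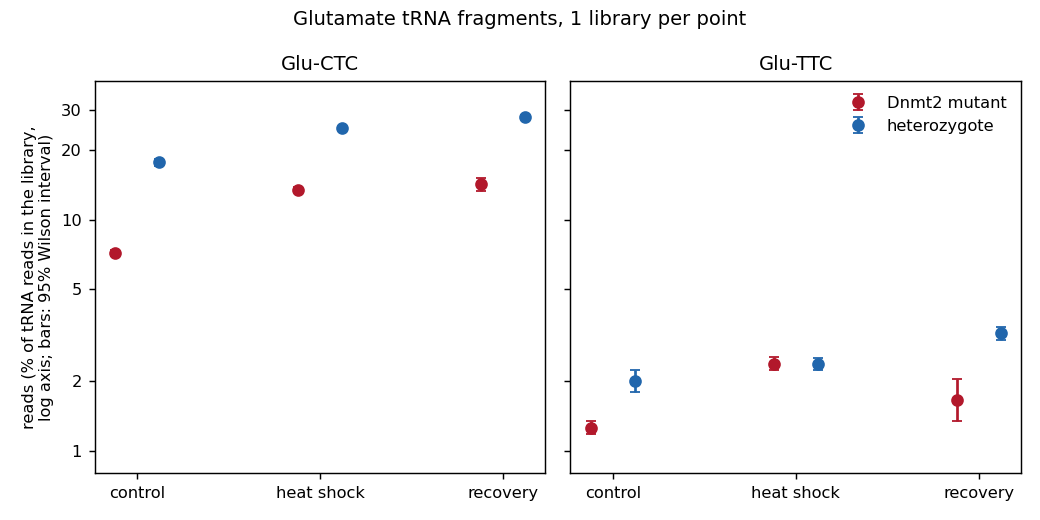
Reads of Glu-CTC (left) and Glu-TTC (right) as a percentage of the tRNA-derived reads of each library, on a log axis, with 95% Wilson intervals and 1 library per point. The 3 mutant points lie below the 3 heterozygote points for Glu-CTC, at 7.17% to 14.3% against 17.8% to 28.0%, whereas the Glu-TTC points of the genotypes meet in heat shock at 2.38% and 2.37%.

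Library shares depend on the other tRNAs, so levels were also compared after TMM scaling, which sets libraries level on the bulk of the tRNAs. For Glu-CTC the log2 ratio, mutant over heterozygote, was -0.99 (95% exact interval -1.06 to -0.92) in control, -0.78 (-0.83 to -0.73) in heat shock and -0.49 (-0.60 to -0.38) in recovery. For Glu-TTC it was -0.36 (-0.54 to -0.16), 0.11 (-0.02 to 0.24) and -0.45 (-0.82 to -0.16) in the same order. Glu-CTC was therefore lower in the mutants in 3 of 3 conditions and Glu-TTC in 2 of 3. In an additive fit over genotype and condition, Glu-CTC stood at -0.75 ± 0.35 (log2 fold change ± SE, 3 libraries against 3) and Glu-TTC at -0.23 ± 0.28, with edgeR adjusted p of 0.113 and 0.555. Neither passed the threshold of 0.05. For Glu-CTC the call turned on settings: the adjusted p was 0.0103 with DESeq2, at -0.90, and 0.0265 with edgeR on total counts, at -1.06.

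The Glu-CTC difference is also touched by base reading, which differed between the mutant and the heterozygote libraries. The source of that difference cannot be told apart from genotype in any comparison of the genotypes here, whether of levels, ends, starts or lengths. Listed reads of up to 36 nt appeared to match their gene exactly, whereas longer ones may hold mismatches. A misread base would then remove a short read. No label states this rule, which was inferred from the listed values. In 51-nt glutamate reads from the mutants, C stood in place of A at read position 7 (A7C) in 15.0%, 12.7% and 15.1% of reads, against 0 of 412, 0.192% and 0 of 1057 in the heterozygotes, which allows a share of up to 0.728% in the heterozygote control. The change A24C took 12.4%, 10.4% and 10.7% in the mutants, against 0 of 417, 0.127% and 0.0936% in the heterozygotes, and A37C took 5.77%, 4.85% and 5.36%, against 0 of 415, 0.257% and 0.284%. Short reads were corrected with the rates over all tRNAs, not over glutamate reads alone, at read positions 7, 24 and 29. Position 37 lies beyond a read of up to 36 nt. Over all tRNAs A24C took 15.2%, 12.6% and 12.4% in the mutants, above the glutamate values. This correction raised Glu-CTC by 31.9%, 24.0% and 24.4% in the mutants and by at most 0.245% in the heterozygotes. The Glu-CTC shares then came to 8.99%, 15.7% and 16.8% in the mutants, against 17.8%, 25.0% and 28.0% in the heterozygotes, still with no overlap. In the fit on corrected counts, Glu-CTC stood at -0.51 (edgeR adjusted p = 0.363), and with the 51-nt reads left out at -0.54 (edgeR adjusted p = 0.311). The correction raised Glu-TTC by 17.4%, 18.0% and 14.3% in the mutants.

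The number of Glu-CTC reads per Glu-TTC read does not depend on library scaling. It was 5.71 (95% exact interval 5.31 to 6.15), 5.69 (5.30 to 6.12) and 8.58 (6.84 to 10.9) in mutant control, heat shock and recovery, against 8.85 (7.87 to 9.99), 10.5 (9.89 to 11.2) and 8.67 (8.10 to 9.29) in the heterozygotes. The ratio was thus lower in mutant control and heat shock libraries and close to the heterozygote value in recovery, where the interval is wide. The difference, mutant minus heterozygote, was -0.63, -0.89 and -0.02 on the log2 scale, with an exact sign-flip permutation p of 0.25, the smallest that 3 pairs allow. The correction for misread bases raised Glu-CTC more than Glu-TTC in each mutant library. With it the mean difference moved from -0.51 to -0.39, and the exact sign-flip permutation p to 0.5. In recovery the corrected reads were 907 Glu-CTC and 97 Glu-TTC in the mutants, against 7981 and 920 in the heterozygotes. There the corrected ratio was higher in the mutants.

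Levels of both isoacceptors were higher in the heat shock library than in the control library of each genotype. The log2 ratio of heat shock over control for Glu-CTC was 0.84 (95% exact interval 0.79 to 0.90) in the mutants and 0.63 (0.58 to 0.70) in the heterozygotes, and for Glu-TTC 0.85 (0.71 to 0.99) and 0.38 (0.20 to 0.57). In the additive fit Glu-CTC stood at 0.74 ± 0.43 and Glu-TTC at 0.63 ± 0.34 (log2 fold change ± SE, 2 libraries against 2), with edgeR adjusted p of 0.172 and 0.153. Neither passed, while 31.8% of the 22 isoacceptors did, and the median isoacceptor stood at -0.39. With DESeq2 both passed, at 1.16 (adjusted p = 0.00467) and 1.06 (adjusted p = 0.00544). The median isoacceptor then stood at 0.06, so the differences of the glutamate tRNAs from the median were similar.

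At recovery the scaled levels were nearer to control, whereas the library shares of Glu-CTC were above those of heat shock in both genotypes. In the mutants the 95% Wilson intervals of these shares overlapped, at 13.3 to 15.2% in recovery and 13.2 to 13.9% in heat shock. On total counts the fit gave 0.82 for recovery over control and 0.70 for heat shock over control. After TMM scaling, the log2 ratio of recovery over control for Glu-CTC was 0.60 (95% exact interval 0.49 to 0.71) in the mutants and 0.10 (0.04 to 0.17) in the heterozygotes. For Glu-TTC it was 0.04 (-0.33 to 0.34) and 0.13 (-0.05 to 0.33). The fit gave 0.35 ± 0.43 for Glu-CTC and 0.09 ± 0.34 for Glu-TTC (log2 fold change ± SE, 2 libraries against 2), with edgeR adjusted p of 0.536 and 0.851. The median isoacceptor stood at -0.39 in this fit. With DESeq2 the values were 0.69 and 0.40 (adjusted p of 0.501 and 0.583), and the median isoacceptor stood at -0.04. No isoacceptor was called by edgeR or DESeq2 (0% of 22), and 1 had an unadjusted p under 0.05 with edgeR.

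Of 22 other isoacceptor features with at least 300 reads in all, those with the most similar course over the 6 libraries were found by the root mean square difference of centred log2 levels. For Glu-CTC they were Val-CAC at 0.24, Asp-GTC at 0.29 and Glu-TTC at 0.33. For Glu-TTC they were Arg-CCT at 0.29, Glu-CTC at 0.33 and Val-CAC at 0.40. Val-CAC and Asp-GTC were both lower in the mutants in the same fit, at -0.96 ± 0.29 and -0.80 ± 0.29 (log2 fold change ± SE), with edgeR adjusted p of 0.00986 and 0.0310. Arg-CCT stood at -0.23 ± 0.30 and was not called (edgeR adjusted p = 0.555). These features were picked for their likeness over the same libraries, so their genotype values are no separate support. The likeness is a description over 6 libraries that share their scaling factors.

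The 5′ fragments of the isoacceptors ended at different bases of the anticodon loop. A 5′ fragment is taken here as a read that starts at base 1 and is shorter than 51 nt, the longest listed length. These made up 83.3%, 85.5% and 87.5% of placed Glu-CTC reads in mutant control, heat shock and recovery, against 79.8%, 83.4% and 81.3% in the heterozygotes. For Glu-TTC they made up 56.8%, 77.1% and 83.5% in the mutants, against 65.3%, 65.6% and 63.2% in the heterozygotes. Glu-CTC 5′ fragments ended mostly at base 35, within the anticodon, or at base 33, just before it, and skipped base 34 between them. The most frequent end of Glu-TTC 5′ fragments was base 34, or base 35 in heterozygote control, and their ends were spread over more bases.

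Base 35 was the end of 82.2%, 72.3% and 44.7% of Glu-CTC 5′ fragments in mutant control, heat shock and recovery, against 55.4%, 66.8% and 53.5% in the heterozygotes. Base 33 was the end of 15.1%, 19.8% and 39.7% in the mutants, against 37.9%, 25.7% and 39.4% in the heterozygotes. Base 34 held 0.223% to 0.785% in the mutants and 0.263% to 1.09% in the heterozygotes. The order of the bases was the same in all 6 libraries, with 35 first and 33 next. The mutant control stood at the high end for base 35 and the mutant recovery at the low end, so the genotypes overlapped.

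Glu-TTC 5′ fragments ended at base 34 in 35.4%, 32.4% and 25.4% of cases in mutant control, heat shock and recovery, against 27.9%, 28.7% and 28.0% in the heterozygotes. Base 35 was their end in 11.6%, 28.7% and 9.86% in the mutants, against 32.3%, 20.9% and 25.8% in the heterozygotes. Base 33 was their end in 12.7%, 5.72% and 9.86% in the mutants, against 4.98%, 6.88% and 2.60% in the heterozygotes. In mutant control base 33 thus stood above base 35. Base 31, before the loop, was the end of 11.4%, 4.11% and 1.41% in the mutants, against 4.98%, 5.06% and 10.7% in the heterozygotes. Of these bases, 34 had the narrowest range relative to its level. Ends at bases 37 to 50 took 21.7%, 22.3% and 46.5% in the mutants, against 20.9%, 25.7% and 23.5% in the heterozygotes, where the mutant recovery value rests on 33 of 71 reads. Among Glu-CTC 5′ fragments the same ends took 1.12%, 5.83% and 12.6% in the mutants, against 3.22%, 4.02% and 4.82% in the heterozygotes.

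**Figure D2:**
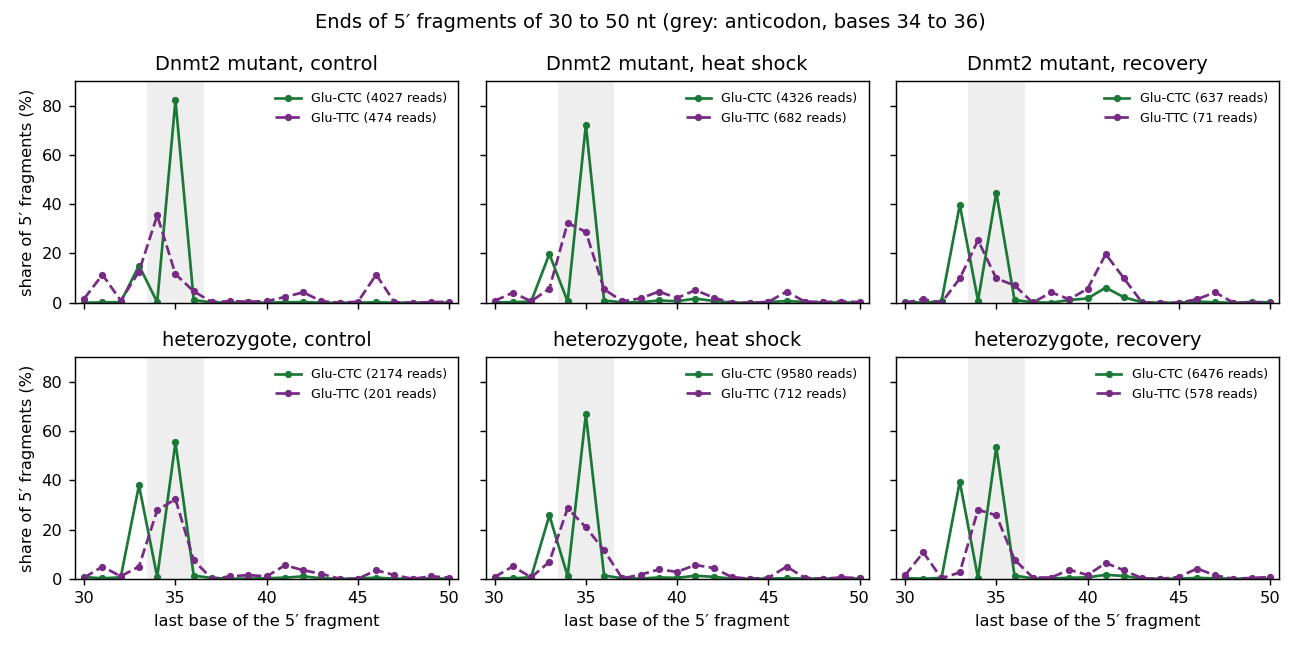
Share of 5′ fragments of 30 to 50 nt that ended at each base, for Glu-CTC (solid) and Glu-TTC (dashed), in mutants (top) and heterozygotes (bottom) under each condition, with anticodon bases shaded. Glu-CTC peaks at bases 35 and 33 with a gap at base 34 in every panel, and Glu-TTC fills that gap with 25.4% to 35.4% of its fragments.

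Over the 6 libraries, base 35 ended 62.5% ± 13.8 of Glu-CTC and 21.5% ± 9.19 of Glu-TTC 5′ fragments (mean ± SD, n = 6 libraries). The difference of 40.9 ± 17.0 percentage points had the same sign in 6 of 6 libraries (exact sign-flip permutation p = 0.03125, 0.0391 after adjustment). Glu-CTC 5′ fragments were 34.7 ± 0.229 nt long on average and those of Glu-TTC 36.3 ± 0.648 nt, a difference of -1.54 ± 0.59 nt with the same sign in 6 of 6 libraries (exact p = 0.03125, adjusted 0.0391). Reads of 51 nt, which may come from longer RNAs, made up 11.0% ± 2.24 of Glu-CTC and 14.2% ± 5.14 of Glu-TTC reads. That difference, -3.18 ± 4.51 points, was not called (exact p = 0.09375, adjusted 0.09375) and was negative in 5 of 6 libraries.

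Between genotypes, the share of Glu-CTC 5′ fragments that ended at base 35 differed by 26.8 points (95% Newcombe interval 24.4 to 29.2) in control, 5.48 points (3.83 to 7.10) in heat shock and -8.78 points (-12.8 to -4.71) in recovery, mutant minus heterozygote. The direction thus changed between conditions, and the exact sign-flip permutation p over the 3 conditions was 0.75. For Glu-TTC the same differences were -20.7 points (-28.0 to -13.9), 7.81 points (3.28 to 12.3) and -15.9 points (-22.2 to -6.19), with an exact permutation p of 0.50. In control the isoacceptors moved in opposite directions, up for Glu-CTC and down for Glu-TTC in the mutants, with 1 library on each side.

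The Glu-CTC families did not share their end pattern. Glu-CTC-2 made up 7.35%, 12.4% and 11.8% of Glu-CTC reads in mutant control, heat shock and recovery, against 11.3%, 12.1% and 10.5% in the heterozygotes, and Glu-CTC-3/1 nearly all the rest. Ends at bases 37 to 50 took 9.33%, 21.4% and 46.2% of Glu-CTC-2 5′ fragments in the mutants, against 13.6%, 15.6% and 19.4% in the heterozygotes. Of Glu-CTC-3/1 5′ fragments they took 0.604%, 3.58% and 8.32% in the mutants, against 2.05%, 2.52% and 3.35% in the heterozygotes. Glu-CTC-2 was thus higher in 6 of 6 libraries. Ends at base 33 were less frequent in Glu-CTC-2, at 7.77%, 13.0% and 23.1% in the mutants and 22.6%, 15.1% and 18.7% in the heterozygotes. In Glu-CTC-3/1 they made up 15.6%, 20.7% and 42.1% in the mutants, and 39.7%, 27.1% and 41.4% in the heterozygotes, higher in 6 of 6. The family comparison was chosen after its values were seen and was not tested.

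**Figure D3:**
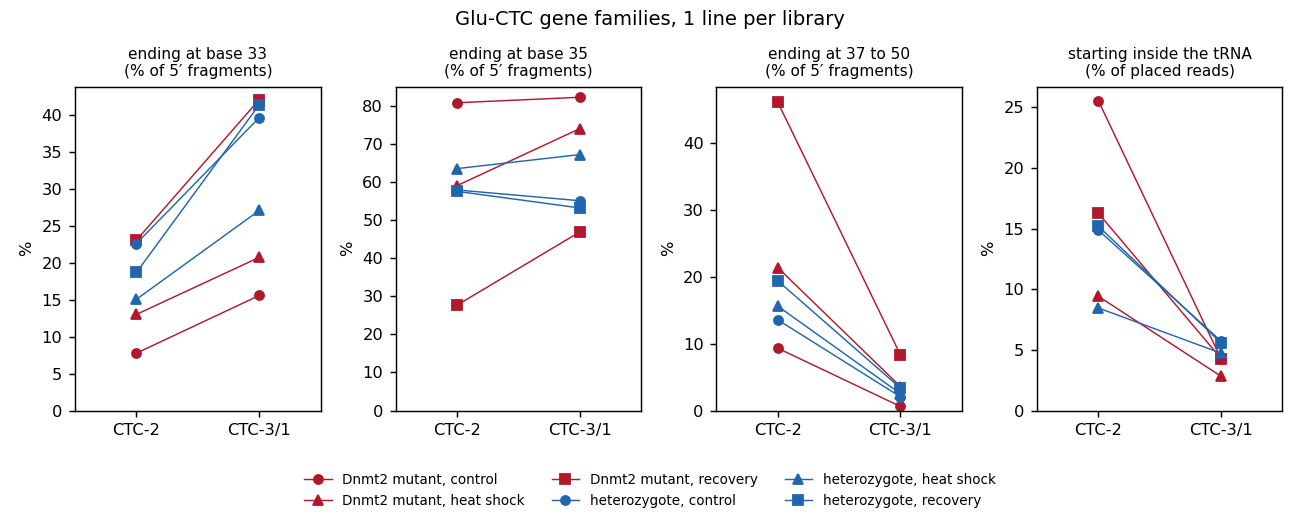
Ends and inner starts of the Glu-CTC-2 and Glu-CTC-3/1 families, in percent of 5′ fragments or of placed reads, with 1 line per library. In all 6 libraries the Glu-CTC-3/1 family has more ends at base 33, fewer at bases 37 to 50 (0.604% to 8.32% against 9.33% to 46.2% in Glu-CTC-2) and fewer reads that start inside the tRNA.

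A Glu-CTC pseudogene, tRNA:Glu-CTC-5-1Psi, differs from Glu-CTC-2 at bases 24 and 50 of the 51 bases that reads cover. Reads placed on it numbered 25, 54 and 5 in mutant control, heat shock and recovery, against 0, 0 and 2 in the heterozygotes. Base 24 is also a read position at which the mutant libraries often carried C in place of A, and the part of such reads in these counts was not tested.

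Fragments that start inside the tRNA were more frequent for Glu-TTC. They made up 29.3%, 8.37% and 8.24% of placed Glu-TTC reads in mutant control, heat shock and recovery, against 18.5%, 11.8% and 27.1% in the heterozygotes. For Glu-CTC they made up 5.87%, 3.60% and 5.63% in the mutants, against 6.76%, 5.18% and 6.59% in the heterozygotes. Over the 6 libraries the mean was 5.60% ± 1.15 for Glu-CTC and 17.2% ± 9.33 for Glu-TTC (SD, n = 6 libraries). The difference of -11.6 ± 8.64 points had the same sign in 6 of 6 libraries (exact sign-flip permutation p = 0.03125, adjusted 0.0391). Between genotypes the Glu-CTC share was lower in the mutants in 3 of 3 conditions, at -1.14 points on average with an exact permutation p of 0.25, and the Glu-TTC share changed direction between conditions (exact permutation p = 0.75). With short reads corrected for misread bases the Glu-CTC difference was -2.17 points, again with an exact permutation p of 0.25. Those shares were 4.52%, 2.93% and 4.54% in the mutants, against 6.76%, 5.17% and 6.58% in the heterozygotes, without overlap.

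In 5 of 6 libraries, all but mutant recovery, most Glu-TTC reads with an inner start came from the 3′ side, with a first base at 34 or later. These made up 27.4%, 6.67% and 3.53% of Glu-TTC reads in mutant control, heat shock and recovery, against 13.3%, 7.37% and 19.7% in the heterozygotes. In the Glu-CTC reads they made up 2.83%, 1.19% and 1.37% in the mutants, against 1.40%, 0.845% and 1.68% in the heterozygotes. The most frequent one, Glu-TTC bases 39 to 72, had 113, 24 and 0 reads in the mutants, against 13, 10 and 48 reads in the heterozygotes, and so was high in mutant control and heterozygote recovery. The fragment of Glu-TTC bases 36 to 70, which starts at the last anticodon base and stops before the end of the gene, had 1, 2 and 0 reads in the mutants, against 6, 38 and 57 reads in the heterozygotes. Ends at base 70 took 13 of 229, 3 of 59 and 0 of 3 such Glu-TTC reads in the mutants, against 8 of 41, 41 of 80 and 60 of 180 in the heterozygotes. The heterozygote libraries were higher in control and heat shock, and 3 reads in mutant recovery allow no statement there. Listed reads are at least 30 nt long and were placed within the 72 bases of the gene. Shorter 3′ fragments and those that run past base 72 are thus not among the placed reads, and all shares by side describe placed reads only.

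**Figure D4:**
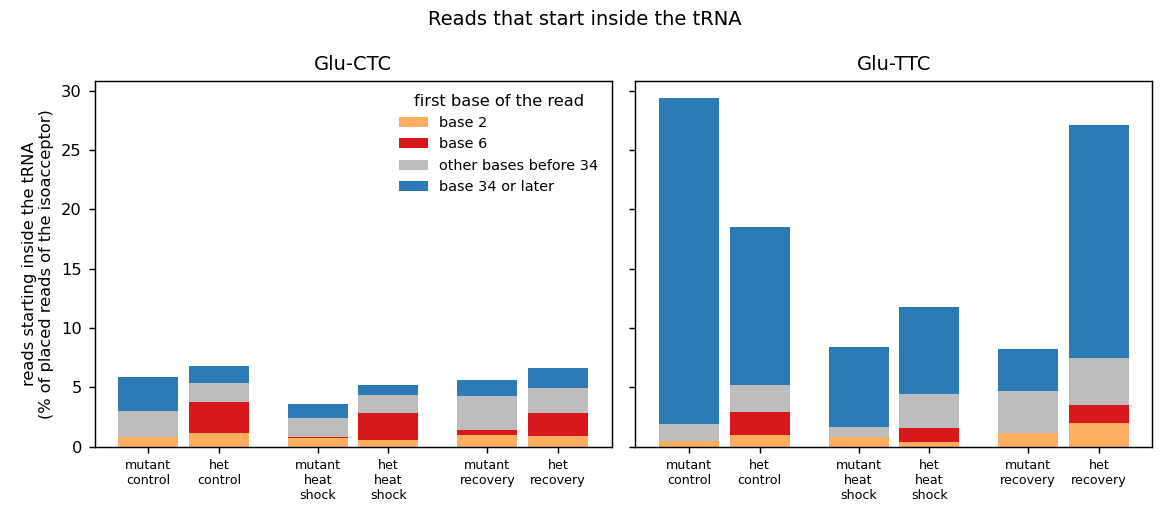
Reads that start inside the tRNA, in percent of the placed reads of Glu-CTC (left) and Glu-TTC (right), stacked by the first base of the read, with 1 bar per library. The segment for starts at base 6 is seen in the 3 heterozygote bars of both isoacceptors and reaches 0.412% at most in the mutant bars, and starts at base 34 or later make up most of the Glu-TTC bars in mutant control and heterozygote recovery.

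A start at base 6 was rare in the mutants. It was found in 1, 3 and 3 Glu-CTC reads in mutant control, heat shock and recovery, against 71, 260 and 153 reads in the heterozygotes. As a share of placed Glu-CTC reads this was 0.0207%, 0.0593% and 0.412% in the mutants, against 2.61%, 2.26% and 1.92% in the heterozygotes. In Glu-TTC it was found in 0, 0 and 0 reads in the mutants, which allows shares of up to 0.359%, 0.339% and 3.53%, against 6, 13 and 14 reads in the heterozygotes, or 1.95%, 1.20% and 1.53%. The genotypes did not overlap for Glu-CTC, and for Glu-TTC the mutant recovery library was too small to tell. The most frequent form in Glu-CTC, bases 6 to 35, is 30 nt long, the shortest listed length. Fragments that start at base 6 and end before base 35 are therefore not seen. The correction for misread bases changed none of the mutant Glu-CTC reads that start at base 6. They stayed at 1, 3 and 3, or 0.0157%, 0.0478% and 0.331% of the corrected reads. It scales only listed reads with an A at a corrected position, so it is no check on these counts. The Glu-CTC form of bases 6 to 51 is 46 nt long, a length at which reads may hold mismatches. It had 0, 1 and 0 reads in the mutants, against 20, 44 and 31 reads in the heterozygotes. A part of base reading in the counts of starts at base 6 was not tested.

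Single sequences of all tRNAs were tested in the same model, with 39 sequences past the minimum count, of which 10 were glutamate fragments. For genotype, 15.4% of the 39 were called, and 2 of the 10 glutamate fragments were among them, both lower in the mutants. Glu-CTC-3/1 bases 6 to 35 had 1, 1 and 2 reads in mutant control, heat shock and recovery, against 36, 176 and 92 reads in the heterozygotes. It passed the minimum count only through the heterozygote libraries, where it is high, so its call gives no support beyond these counts, and no fold change is printed. Glu-CTC-3/1 bases 1 to 51 had 310, 278 and 26 reads in the mutants, against 304, 1019 and 756 reads in the heterozygotes, and fell by 1.52 ± 0.32 (log2 fold change ± SE, edgeR adjusted p = 0.0268). As a share of Glu-CTC reads the 51-nt sequence took 6.40%, 5.49% and 3.57% in the mutants, against 11.1%, 8.87% and 9.48% in the heterozygotes. This sequence counts exact reads alone, and the C read at A lowers such reads in the mutants. All 51-nt reads of the family took 10.1%, 9.25% and 6.03% of its placed reads in the mutants, against 13.3%, 10.9% and 11.5% in the heterozygotes, where the genotypes came closer without overlap. The short reads in that total were not corrected for misread bases. Over all Glu-CTC, 51-nt reads took 10.9%, 10.9% and 6.87% of placed reads in the mutants. With short reads corrected they took 8.29%, 8.83% and 5.52%, against 13.5%, 11.5% and 12.3% in the heterozygotes. With 1 library left out at a time, the value for bases 1 to 51 ran from -1.77 to -1.40, and its edgeR adjusted p from 0.0550 to 0.243. The genotype calls were then Glu-CTC-3/1 bases 6 to 35 without mutant recovery, Glu-TTC bases 1 to 35 without heterozygote heat shock, and 0 in the other 4 cases.

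The other 8 glutamate sequences tested were not called. They too count exact reads alone, and their values were not corrected for the C read at A in the mutants. Over whole isoacceptors that correction raised mutant Glu-CTC reads by 24.0% to 31.9% and Glu-TTC reads by 14.3% to 18.0%. The most abundant, Glu-CTC-3/1 bases 1 to 35, had 3131, 2837 and 265 reads in mutant control, heat shock and recovery, against 1076, 5715 and 3146 reads in the heterozygotes (log2 fold change -0.30 ± 0.31, edgeR adjusted p = 0.535). Glu-CTC-3/1 bases 1 to 33 had 593, 795 and 238 reads in the mutants, against 775, 2304 and 2450 reads in the heterozygotes (-1.05 ± 0.41, edgeR adjusted p = 0.141). These sequences alone averaged 47.6% and 23.3% of the Glu-CTC reads of a library. Glu-CTC-2 bases 1 to 35 had 156, 254 and 18 reads in the mutants, against 128, 683 and 320 reads in the heterozygotes (-1.05 ± 0.31, edgeR adjusted p = 0.0783).

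Among Glu-TTC sequences, bases 1 to 34 had 168, 221 and 18 reads in mutant control, heat shock and recovery, against 56, 204 and 162 reads in the heterozygotes (log2 fold change 0.24 ± 0.32, edgeR adjusted p = 0.613). Bases 1 to 35 had 55, 196 and 7 reads in the mutants, against 65, 149 and 149 reads in the heterozygotes (-0.64 ± 0.62, edgeR adjusted p = 0.514). Bases 1 to 51 had 64, 90 and 4 reads in the mutants, against 45, 221 and 80 reads in the heterozygotes (-0.95 ± 0.27, edgeR adjusted p = 0.0783). The value of the sequence that ends at base 34 turned negative on total counts, at -0.25, without heterozygote heat shock, at -0.15, and without mutant heat shock, at -0.01. For heat shock 10.3% of the 39 sequences were called, none of them a glutamate fragment, and 1 of the 10 had an unadjusted edgeR p under 0.05. For recovery 0% were called by edgeR, and 2 of the 39 had an unadjusted p under 0.05.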

How the data were processed

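The deposited tables hold raw counts, per the file headers: for each tRNA gene and sequence, a whole number of reads, as the authors left it, with no scaling. The submitters' processing notes name Bowtie and build dm3; no label or header used here gives other settings. Sequences of 30 to 51 nt are listed at every gene they match, and appear in a shortened form at genes that lack their end. Counts of longer sequences were therefore taken off shortened forms. The shortening was inferred from the listed values, as no label states it. The 6 libraries then held 5113 to 67477 reads. A total of this kind is part of a library, not its depth. Groups follow the sample titles and strain labels.

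Glutamate gene sequences were rebuilt from overlapping reads, and reads were placed with up to 2 mismatches. Of the 25 genes, 20 matched the RefSeq table by name. The printed sequences come from the deposited tables, and those of other fragments are not reported here.

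Isoacceptors and single sequences were tested 2-sided by the quasi-likelihood functions of edgeR 4.0.16 (R 4.3.3) with TMM scaling and Benjamini-Hochberg adjustment at 0.05. A feature needed, in 3 or more libraries, the CPM that equals 10 counts in the smallest one. Genotype and condition were additive terms, which left 2 residual degrees of freedom, so its spread was pooled over features and includes any interaction; the biological coefficient of variation was 0.231. The script was tested on simulated data. DESeq2 1.42.0 was an alternative. Ratios of scaled counts used a prior count of 2 with exact conditional binomial intervals, shares have Wilson intervals, and differences of shares have Newcombe intervals. For a share of 0, 3 counts of the total are given as its limit. The Dnmt2 transcript and other RNA classes were not analysed here.

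Named sequences are the 5 with the highest mean share of each isoacceptor's reads and each glutamate sequence called; others named by position were chosen after their values were seen. The members and the comparisons were chosen with earlier results of these data known.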

Additional observations from a re-analysis of the deposited data

Results flagged for a closer look

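The share of Glu-CTC 5′ fragments that ended at base 35 moved in opposite directions in the genotypes after heat shock, by -9.93 points in the mutants and 11.4 points in the heterozygotes. For Glu-TTC the same change was 17.1 points in the mutants and -11.4 points in the heterozygotes. Mutant minus heterozygote, the share of Glu-CTC fragments ending there was 26.8, 5.48 and -8.78 points in the control, heat shock and recovery pairs. For Glu-TTC it was -20.7, 7.81 and -15.9 points. Reads of Glu-TTC that start inside the tRNA differed by 10.8, -3.42 and -18.9 points, mutant minus heterozygote, in control, heat shock and recovery. Their share changed at recovery by -21.1 points in the mutants and 8.63 points in the heterozygotes. Each of these sets was picked out because its sign changed between groups while the counting intervals excluded 0. With 1 library per group, the difference between the groups was not tested.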

How the results depend on the processing

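The labels carry no replicate numbers, so samples were paired by condition or within a library, and never by number. The genotype difference of Glu-CTC passed the threshold on total counts (-1.06) and with DESeq2 (-0.90), and ran from -0.84 to -0.56 when libraries were left out, past the threshold once the library of mutant control, or of recovery in either genotype, was removed. The heat shock difference passed with DESeq2, at 1.16 for Glu-CTC and 1.06 for Glu-TTC, and with RLE size factors for Glu-TTC, at 1.06. Leaving out libraries gave 0.67 to 1.05 for Glu-CTC, past the threshold without heterozygote or mutant recovery, and 0.39 (without mutant heat shock) to 0.91 for Glu-TTC. Recovery ran from 0.27 to 0.81 (without heterozygote control) for Glu-CTC and from 0.08 to 0.47 (also without heterozygote control) for Glu-TTC, and the genotype value of Glu-TTC from -0.41 to -0.07. Without 1 library, 5 pairs cannot go below an exact p of 0.0625, so the isoacceptor differences could not be called: log2 reads ran from 2.88 to 3.05, ends at base 35 from 35.01 to 44.5 points, mean length from -1.66 to -1.33 nt and inner starts from -13.4 to -9.26 points. With each distinct sequence counted as listed, the mean length difference between the isoacceptors was -1.12 nt, and with misread bases corrected it was -1.37 nt. Both were called (exact sign-flip permutation, adjusted p = 0.0391). The genotype difference in Glu-CTC ends at base 35 was -1.65 without the control pair, with a range to 16.1, and that of Glu-TTC inner starts was 3.71 without the recovery pair, with a range to -11.2. Among single sequences, settings chosen after seeing the data called 4 with RLE size factors and 7 on total counts, and 0 to 1 when a library was left out. The cause of these changes was not tested. Depth limits most of all the mutant recovery library, with 85 Glu-TTC reads.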
